A study of Homo sapiens with 2 samples.

Results

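Ribosome-protected fragments on 7 genes of polyamine metabolism were measured in HEK293 cells, a widely used line of human embryonic kidney origin. The genes were ODC1 (ENSG00000115758), AMD1 (ENSG00000123505), SRM (ENSG00000116649), SMS (ENSG00000102172), OAZ1 (ENSG00000104904), AZIN1 (ENSG00000155096) and SAT1 (ENSG00000130066). They were chosen by name, as genes of a pathway known for translational control, and matched by Ensembl ID without its version, 7 of the 57820 IDs in the table. The 2 libraries formed a single group of cells given DMSO vehicle for 12 h, replicate 1 in batch 1 and replicate 2 in batch 2, with no genotype change given in the labels. Cells given minocycline, mRNA levels and the place of fragments along an mRNA were not analysed here. The values therefore describe how many fragments of 27 to 29 nt each gene carried in vehicle-treated cells and how far the libraries differed, and do not measure translational control itself. Nothing in the labels beyond the batch numbers states that the libraries came from separate cultures, so an SD over 2 libraries may be partly technical. Because each library was its own batch, batch and replicate cannot be told apart. The identity of the cell line was not checked against marker genes, since the IDs of the other genes were not paired with names.

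Polyamines (putrescine, spermidine and spermine) are small positively charged molecules that bind RNA and are needed for growth. Their synthesis begins with ornithine decarboxylase (ODC1), draws aminopropyl groups from the product of S-adenosylmethionine decarboxylase (AMD1), and ends with spermidine synthase (SRM) and spermine synthase (SMS). The pathway is known for feedback at the ribosome. When polyamines are abundant, ribosomes shift frame on OAZ1 mRNA and complete antizyme, which binds ornithine decarboxylase and sends it to the proteasome, and AZIN1 encodes a relative of ornithine decarboxylase without its activity that captures antizyme. Upstream reading frames are known to restrain AMD1 and AZIN1, and SAT1, the acetyltransferase that starts polyamine breakdown and export, is translated more when polyamines are high.

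The short reading frame that precedes the AMD1 coding sequence lies close to the transcript's start and can be shown from the RefSeq promoter table (build GRCh38.p14), at chr6:110874791-110874820 on the plus strand. It is given because polyamines are known to act on AMD1 translation through this frame, and because it falls within the sequence windows used here. Capitals mark the upstream frame of 21 bases with its start and stop codons, which begins 12 bases into the transcript (13 by a neighbouring annotated start).

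AMD1 upstream frame: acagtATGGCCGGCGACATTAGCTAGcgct

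Within the first 50 transcript bases, AMD1 alone of the 6 members with a window held an ATG followed by an in-frame stop codon. A member counted if any of its windows held such a frame. AMD1 had 3 windows, not all of which held it, while OAZ1, SAT1, SMS and SRM had 1 each. Only the transcript's strand was read. Of all 35116 windows in the table, 10.2% held such a frame, a share per window and not per gene. AZIN1 had no window and was not searched, and frames that lie further along a transcript were not looked for in any gene. The count table gives 1 value per gene, so a footprint on this upstream frame and a footprint on the main AMD1 frame fall into the same count, as do footprints before and after the frameshift of OAZ1. A second motif, CACGTG, which reads the same on both strands and is known as a binding site of MYC family proteins, lay in the 250 bases before the start in SRM and in 1 of the 2 windows of ODC1, against 6.34% of all windows. The SRM stretch lies at chr1:11060200-11060229 on the minus strand, and capitals mark the motif. It is given because SRM and ODC1 carried the most fragments of the 7 genes. A match of letters is a description and says nothing of binding. Whether the motif relates to the number of fragments was not tested.

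SRM promoter stretch: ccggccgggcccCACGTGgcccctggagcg

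Library totals were 865838 counts in replicate 1 and 611266 in replicate 2, so that a single fragment equals 1.15 and 1.64 CPM (counts per 1000000 counts of the library). The 2 highest IDs of the table took 17.6% and 23.2% of the libraries. All 7 genes had fragments in both libraries, and all of their deposited counts were whole numbers. Between them they held 152 counts in replicate 1 and 160 in replicate 2, or 176 and 262 CPM, a mean of 219 ± 61.0 CPM (SD, n = 2). Members' counts ran from 1 to 63, which leaves the sparse ones with wide intervals. All intervals are exact, at 95%, and cover counting error only; fragments copied by PCR and counted more than once would make them too narrow.

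**Figure D1:**
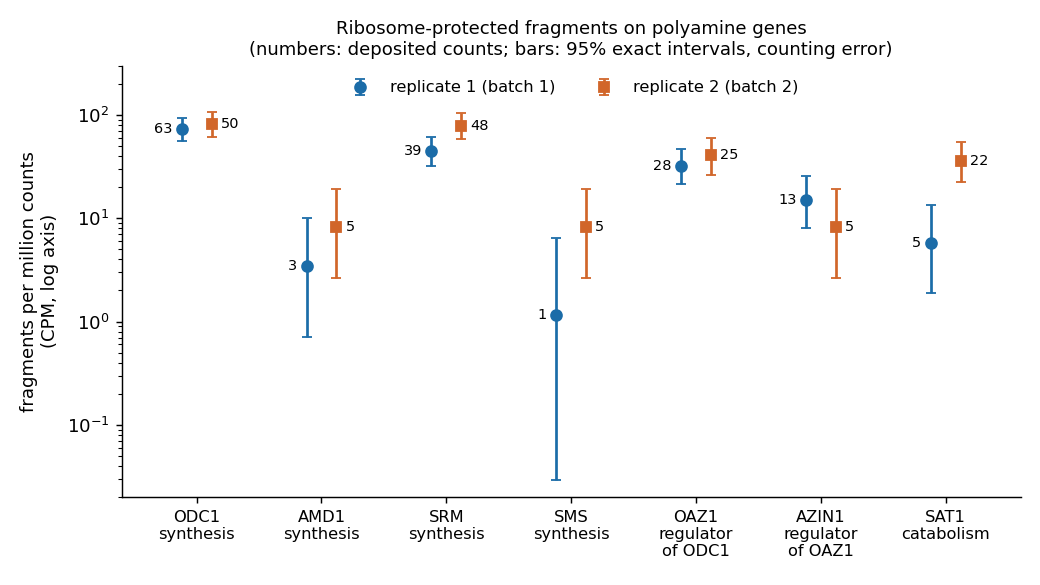
CPM of each gene on a log axis, circles for replicate 1 and squares for replicate 2, with 95% exact Clopper-Pearson intervals and the deposited count beside each point. The intervals of ODC1 and OAZ1 overlap widely between the libraries. Those of SRM overlap narrowly, and the interval of its ratio between the libraries leaves out equality. SAT1 has 5 counts in replicate 1 and 22 in replicate 2 with intervals that do not overlap.

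Of the synthesis enzymes, ODC1 and SRM carried many fragments and AMD1 and SMS few. ODC1, the first enzyme, had 63 counts in replicate 1 and 50 in replicate 2, or 72.8 CPM (55.9 to 93.1) and 81.8 CPM (60.7 to 108). The intervals of the libraries overlapped widely, and the mean of 77.3 ± 6.39 CPM (SD, n = 2) had the smallest relative spread of the 7 genes, 8.27%. ODC1 also had the most counts of the 7, where relative counting error is smallest, so this does not show a steadier gene. SRM, which makes spermidine, had 39 and 48 counts in replicates 1 and 2, or 45.0 CPM (32.0 to 61.6) and 78.5 CPM (57.9 to 104). Replicate 2 was the higher library for SRM, whose mean was 61.8 ± 23.7 CPM (SD, n = 2).

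AMD1, whose product supplies the aminopropyl groups for both synthases, had 3 and 5 counts in replicates 1 and 2, or 3.46 CPM (0.715 to 10.1) and 8.18 CPM (2.66 to 19.1). SMS, which turns spermidine into spermine, had 1 and 5 counts in replicates 1 and 2, or 1.15 CPM (0.0292 to 6.43) and 8.18 CPM (2.66 to 19.1). The means were 5.82 ± 3.33 CPM for AMD1 and 4.67 ± 4.97 CPM for SMS (SD, n = 2 each). For both genes the intervals of the libraries overlapped. The value in replicate 1 was at or below a floor fixed for sparse values at 3 counts, or 3.46 CPM.

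Of the regulators, OAZ1 was the better covered. OAZ1 had 28 and 25 counts in replicates 1 and 2, or 32.3 CPM (21.5 to 46.7) and 40.9 CPM (26.5 to 60.4), a mean of 36.6 ± 6.05 CPM (SD, n = 2). AZIN1, which releases ornithine decarboxylase from antizyme, had 13 and 5 counts, or 15.0 CPM (7.99 to 25.7) and 8.18 CPM (2.66 to 19.1). The AZIN1 mean was 11.6 ± 4.83 CPM (SD, n = 2), its intervals overlapped, and it was the 1 gene of the 7 with a higher CPM in replicate 1.

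SAT1, the acetyltransferase of polyamine breakdown, had 5 counts in replicate 1 and 22 in replicate 2, or 5.77 CPM (1.88 to 13.5) and 36.0 CPM (22.6 to 54.5), and the intervals did not overlap. Its mean of 20.9 ± 21.4 CPM (SD, n = 2) had an SD as large as the mean itself, so a mean level for SAT1 describes neither library. The SD of SMS was also as large as its mean, but there the intervals overlapped.

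Counts were not divided by coding length, because no lengths were given for these genes, so the order below is an order of fragments caught and not of ribosome density. By mean CPM the order was ODC1, SRM, OAZ1, SAT1, AZIN1, AMD1 and SMS. ODC1 ranked 1963 and SRM 2425 among the 12262 IDs above 0 in both libraries, which put them above 84.0% and 80.2% of those IDs. OAZ1 stood above 69.6%, SAT1 above 55.6%, AZIN1 above 39.7%, AMD1 above 22.2% and SMS above 17.1%. These places depend on which IDs are counted: among the 6965 IDs with at least 20 summed counts, ODC1 stood above 71.8%, SRM above 65.2%, OAZ1 above 46.5% and SAT1 above 21.9%, and the other 3 genes did not reach that minimum. The places of 4 genes also differed by over 1.5 times between the libraries. Among the 12262 IDs, SAT1 stood above 22.9% in replicate 1 and 69.0% in replicate 2. SMS stood above 1.35% in replicate 1 and AMD1 above 13.6%, and both stood above 29.8% in replicate 2. AZIN1 stood above 46.0% in replicate 1 and 29.8% in replicate 2.

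**Figure D2:**
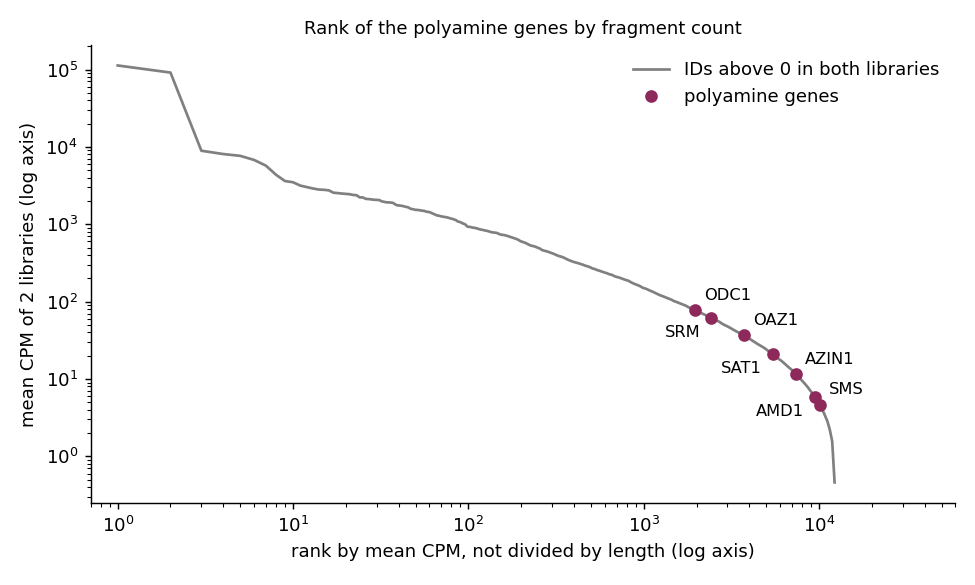
Mean CPM of the 2 libraries against rank, both on log axes, for the 12262 IDs above 0 in both libraries (line) and the 7 polyamine genes (points). ODC1 at rank 1963 and SRM at rank 2425 head the pathway, and SMS at rank 10126 closes it.

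Whether neighbours in this order differed was read from the ratio of their counts within each library, which needs no scaling between libraries. None of the 6 neighbouring pairs differed in the same direction in both libraries by an interval that left out equality, and over all 21 pairs 12 did. ODC1 over SRM was 1.62 (1.07 to 2.47) in replicate 1 and 1.04 (0.687 to 1.58) in replicate 2. SRM over OAZ1 was 1.39 (0.835 to 2.35) in replicate 1 and 1.92 (1.16 to 3.25) in replicate 2. The order of SAT1 and AZIN1 turned between the libraries, with SAT1 over AZIN1 at 0.385 (0.107 to 1.15) in replicate 1 and 4.40 (1.63 to 14.9) in replicate 2. AZIN1, AMD1 and SMS had the same count, 5, in replicate 2, and their order comes from replicate 1 alone.

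Ratios of counts between partners in the pathway were read in the same way. They too were not divided by coding length, so a ratio below 1 need not mean a lower ribosome density. Fragments on OAZ1 over fragments on ODC1, the antizyme and its target, were 0.444 (0.274 to 0.704) in replicate 1 and 0.500 (0.296 to 0.824) in replicate 2. Both intervals lay below 1, so OAZ1 had fewer fragments than ODC1 in each library. AZIN1 over OAZ1, the inhibitor and the antizyme it captures, was 0.464 (0.221 to 0.926) and 0.200 (0.0598 to 0.532), also below 1 in both. Between the decarboxylases, AMD1 over ODC1 was 0.0476 (0.00956 to 0.146) and 0.100 (0.0311 to 0.249). Between the synthases, SRM over SMS was 39.0 (6.60 to 1579) and 9.60 (3.84 to 30.9). The last interval in replicate 1 rests on 1 SMS count. SAT1 over ODC1, breakdown against synthesis, was 0.0794 (0.0249 to 0.195) in replicate 1 and 0.440 (0.254 to 0.740) in replicate 2, and these intervals did not overlap.

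The share of the pathway's own fragments that each gene took had overlapping intervals in the 2 libraries for 6 of the 7 genes, all but SAT1. ODC1 took 41.4% (33.5 to 49.7) of the 152 fragments in replicate 1 and 31.2% (24.2 to 39.0) of the 160 in replicate 2. SRM took 25.7% (18.9 to 33.4) and 30.0% (23.0 to 37.7), and OAZ1 took 18.4% (12.6 to 25.5) and 15.6% (10.4 to 22.2). SAT1 took 3.29% (1.08 to 7.51) in replicate 1 and 13.8% (8.82 to 20.1) in replicate 2. Each of AMD1, SMS and AZIN1 took under 10% in both libraries. The 4 synthesis enzymes together took 69.7% and 67.5%.

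**Figure D3:**
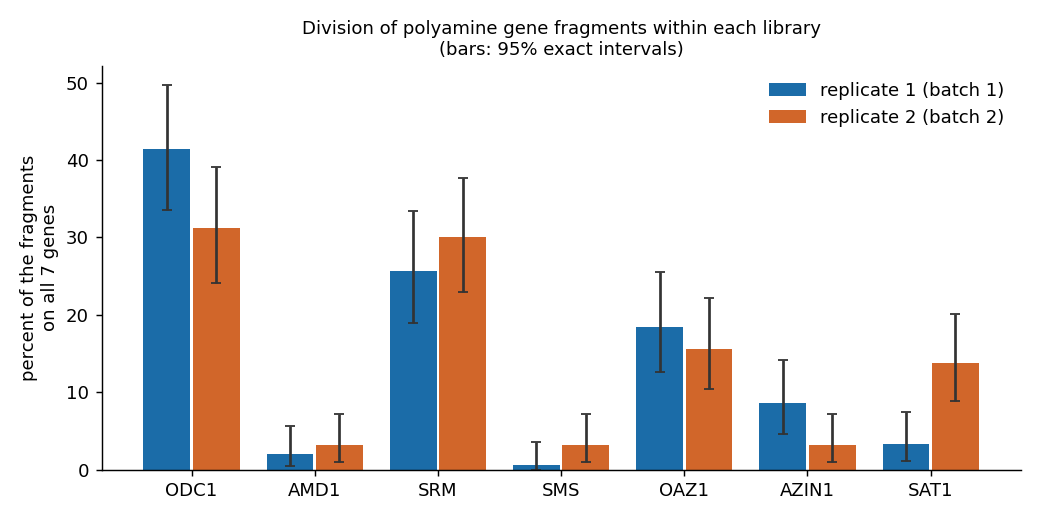
Percent of the fragments on all 7 genes that each gene took, bars side by side for replicate 1 and replicate 2, with 95% exact Clopper-Pearson intervals. The intervals of SAT1 are the only ones that do not overlap, at 3.29% in replicate 1 and 13.8% in replicate 2.

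The libraries were then compared gene by gene as the log2 ratio of replicate 2 over replicate 1 after TMM scaling, which estimates relative library size from the bulk of genes and moved all ratios by 0.11 against scaling by library totals. The intervals are conditional exact binomial intervals. Only ODC1 reached the 100 summed counts set for calls, with a log2 ratio of 0.28 (-0.29 to 0.84). It was not beyond 2-fold, where 0.803% of the 2241 IDs with that many counts were. With a minimum of 20 summed counts, 4 members could be called and 1, SAT1, was beyond 2-fold, where 1.22% of 6965 IDs were; SAT1 was higher in replicate 2, as were 0.804% of these IDs. For 2 of these 4, SRM and SAT1, the interval left out equality, where this held for 26.3% of the 6965 IDs.

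SAT1 had a log2 ratio of 2.75 (1.31 to 4.51), or 6.72-fold higher in replicate 2 with an interval from 2.48-fold to 22.7-fold. Of the 6965 IDs, 0.646% differed by as much or more in either direction. With a 99% interval SAT1 was no longer beyond 2-fold. The 2 libraries were grown as one condition, so the difference lies between libraries and not between treatments, and whether batch, handling or polyamine state moved with it was not tested.

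SRM had a log2 ratio of 0.91 (0.27 to 1.56), and 19.3% of the 6965 IDs differed by as much. OAZ1 had a log2 ratio of 0.45 (-0.39 to 1.28). The others were under 20 summed counts. AMD1 had a log2 ratio of 1.35 (-1.01 to 4.04), SMS of 2.93 (-0.23 to 8.50) and AZIN1 of -0.77 (-2.61 to 0.81), and all these intervals held equality. No difference beyond counting error was detected in these 3 genes, whose intervals are wide. Under 20 summed counts, none of these 3 genes could be called. With that minimum set aside, the interval of SMS, with 6 counts, could not lie beyond 2-fold even with all counts in 1 library. For AMD1 and AZIN1 it could, in at least 1 direction.

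Over all 7 genes, 6 had a higher scaled value in replicate 2, and the median log2 ratio was 0.91. Only for SRM and SAT1 did the interval leave out equality, and the genes are not replicates of a condition. Over the 11967 IDs above 0 in both libraries after rounding, 53.4% were higher in replicate 2, and the median was 0.04. The summed counts of the 7 genes had a log2 ratio of 0.69 (0.36 to 1.02). Without SAT1, the other 6 genes together had 170 CPM in replicate 1 and 226 CPM in replicate 2. The log2 ratio of that sum, which holds SRM, was 0.52 (0.17 to 0.87). Both intervals for sums left out equality. The 2 regulators OAZ1 and AZIN1 together had 47.4 and 49.1 CPM in replicates 1 and 2, with a log2 ratio of 0.16 (-0.57 to 0.88). In replicate 2 AZIN1 was lower and OAZ1 higher, but the interval of each held equality. RefSeq lists pseudogenes under the names of AMD1 (4), SRM (3), SMS (1) and OAZ1 (1), so fragments that fit both a gene and its copy may have been divided or dropped in counting, which the whole-number counts do not settle.

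**Figure D4:**
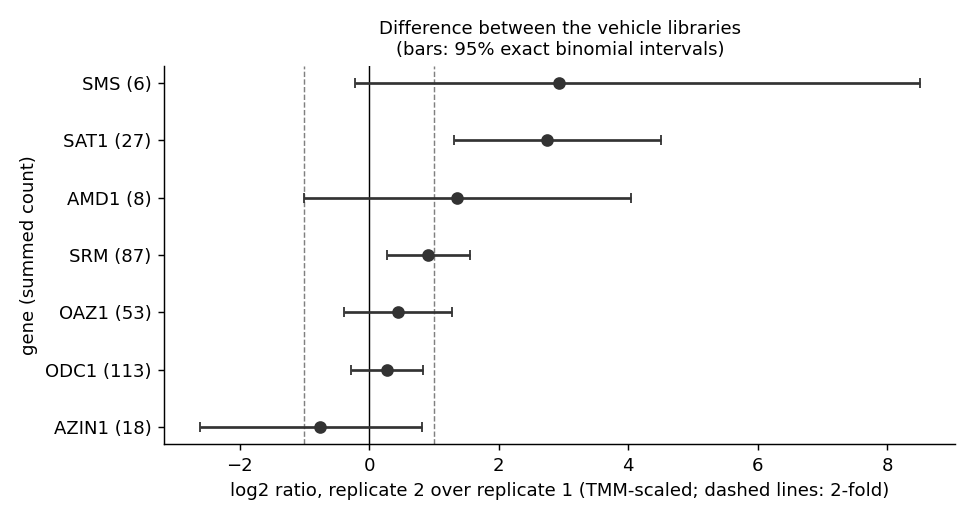
Log2 ratio of replicate 2 over replicate 1 after TMM scaling for each gene, with its summed count in brackets and 95% exact binomial intervals; dashed lines mark 2-fold. SAT1, at 2.75, is the only gene whose interval lies wholly beyond 2-fold, and SMS, with 6 counts, has the widest.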

How the data were processed

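The deposited table holds, per the labels, gene-level counts of fragments of 27 to 29 nt, unscaled, with 1 column per library. Some of the authors' values are not whole, so they were treated as estimated counts and rounded to whole numbers for ratios and scaling; replicate 1 had 15.2% and replicate 2 had 13.9% of non-zero values further than 0.001 from a whole number. Each sample came from 2 dishes of 15 cm, and, per the labels' protocols, RNase I digestion and a sizing column left single ribosomes, and RNA of 20 to 38 nt was cut from a gel without removal of ribosomal RNA. Per the submitters' processing notes the genome build was hg19. For aligner, counting tool, annotation and strand setting, a statement was not given in the sources used here.

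CPM used the sum of all IDs. Factors of the TMM method (edgeR 4.0.16 under R 4.3.3) used the IDs with a sum of 20 counts or more, size factors for an alternative from DESeq2 1.42.0, and intervals from scipy 1.17.1 at 95%. With 1 group there was no contrast, and no p-value was computed. Calls were made over the whole table. Steps were tested on simulated data that held counting error only, with changes placed in IDs of at least 100 summed counts. The table of reference genes pairs 0 of the IDs with names, so member names come from the list given for this work. A wider list of polyamine genes and a list of cell type markers could not be applied, and no coding lengths were given. The density comparison per coding length was replaced by ratios of counts. Named genes were all 7 members, whatever their values. Members and lists were chosen with earlier results of these data known. Promoter sequences are RefSeq's, matched by symbol for 6 of the 7 genes, all but AZIN1.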

Additional observations from a re-analysis of the deposited data

How the results depend on the processing

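The summed level of the 7 genes was 219 CPM, between 176 and 262 CPM with 1 library left out, and 295 CPM when the 10 highest IDs were left out of the library totals, a rise that follows from the smaller totals. TMM and DESeq2 scaling moved it by less than the SD. No member was beyond 2-fold with at least 100 summed counts and 1 (SAT1) with at least 20, because ODC1 alone reached the higher minimum. With at least 20, the count stayed at 1 under library totals, DESeq2 scaling, rounding down and a 1.5-fold limit, and became 0 with a 99% interval; these alternatives at the lower minimum were chosen after seeing the data. Neighbouring genes that differed in count were 0 of 6 in both libraries together, and 2 to 3 when 1 library alone was read. The log2 ratio of SAT1 over AZIN1 averaged 0.38 and was -1.38 without replicate 2 and 2.14 without replicate 1; the cause was not tested. Log2 ratios between the libraries kept their sign under all alternatives run. Division by coding length was not run, because lengths were not given, and rounding down could not move the ratios between members, whose counts are whole. No paired analysis was possible because the libraries form a single group. Places of genes among IDs fell when only IDs with at least 20 summed counts were counted, since sparse IDs were then left out, to 46.5% for OAZ1 and 21.9% for SAT1. Depth limits AMD1, SMS and AZIN1, which had under 20 summed counts.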
